A study of Mus musculus with 6 samples.

Results

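The genes of 10 cardiac mesoderm regulators were followed in blood-fated mesoderm with and without SCL: Mesp1, Mesp2, Hand1, Hand2, Isl1, Nkx2-5, Mef2a, Mef2c, Mef2d and Smarcd3. They were chosen by name, with no expression value in the rule but with earlier results of these data known. All 10 were found in the deposited table of 14005 genes. The RNA-seq libraries were made from mesodermal cells that carried the receptor FLK1 and were sorted from mouse embryonic stem (ES) cell-derived embryoid bodies (EBs) at day 3.5. The 3 WT libraries came from the J1 ES cell line and the 3 Scl-/- libraries from an ES cell line with a disrupted Scl gene (symbol Tal1), each number being an independent differentiation. The labels give the strain as C57Bl/6 X Sv129 for both first libraries and WT replicate 2, and as Sv130, Sv131 and Sv132 in place of Sv129 for Scl-/- replicate 2, WT replicate 3 and Scl-/- replicate 3, a running number whose meaning is not given in the sources used here. Each genotype is represented by a single ES cell line, neither group was treated, and a difference between genotypes cannot be told apart from a difference between lines.

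Cardiac mesoderm forms from early mesoderm cells that leave the primitive streak, switch on MESP1 and MESP2 for a short time and then move forward to build the heart. MESP1, MESP2, HAND1 and HAND2 are basic helix-loop-helix (bHLH) factors that bind E-box DNA, most often with an E protein partner such as TCF3. ISL1, a LIM-homeodomain factor of second heart field progenitors, and NKX2-5, a homeodomain factor of cardiac progenitors, follow later. The MEF2 proteins are MADS-box factors of muscle gene activation, and SMARCD3 (BAF60C) is the BAF chromatin remodelling subunit best known from heart development. SCL is itself a bHLH factor, required for the blood programme in FLK1+ mesoderm.

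Values are CPM, the reads of a gene as a share of all mapped reads, scaled by the authors with the TMM method, and the reads on listed genes ranged from 38623641 to 47621120 per library. At this depth 3 reads correspond to 0.0615 to 0.0784 CPM, a floor that covers counting error only. The targeted gene Tal1 read 182 to 306 CPM in the WT and 5.68 to 9.35 CPM in the Scl-/- libraries. Kdr, which encodes the sorted FLK1, read 832 to 868 CPM and 724 to 810 CPM. Differences are log2 fold changes of Scl-/- against WT on the log2(CPM + 0.5) scale, which understates the change of low genes, and were tested with limma. A gene was called at a Benjamini-Hochberg adjusted p under 0.05 over the 13991 genes tested, with an absolute log2 fold change above 0.48. Same-numbered libraries deviated together, so the fit with the replicate number as a block is given beside the fit with condition alone where the 2 differ in a call.

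All 10 genes passed the filter on low values. With condition alone, 0 of 10 were called higher, against 0.793% of all genes tested, and 0 were called lower, against 1.57%. By unadjusted p, 2 of the 10 (Mesp1 and Mef2c) were under 0.05, against 17.7% of all genes. With the replicate block, 3 of 10 were called higher (Mesp1, Mesp2 and Isl1), against 6.04% of all genes, and 0 were called lower, against 6.6%. In the same fit 6 had an unadjusted p under 0.05, against 36.9% of all genes. The direction was positive for 3 genes and negative for 7, and the median log2 fold change of the 10 was -0.13, beside 0.01 over all genes tested. All 3 pairs were higher in Scl-/- cells for 3 genes, against 29.8% of all genes, and all 3 were lower for another 3 (Nkx2-5, Mef2c and Mef2d), against 26.4%. For Hand1, Hand2, Mef2a and Smarcd3 the first pair was higher in Scl-/- cells and the other two lower. Groups that did not overlap were found for 1 gene on the lower side (Mef2c), against 10.7% of all genes, and for 0 on the higher side, against 11%. In bulk RNA of a sorted population, fewer cells that carry a transcript and less transcript per cell cannot be told apart.

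**Figure D1:**
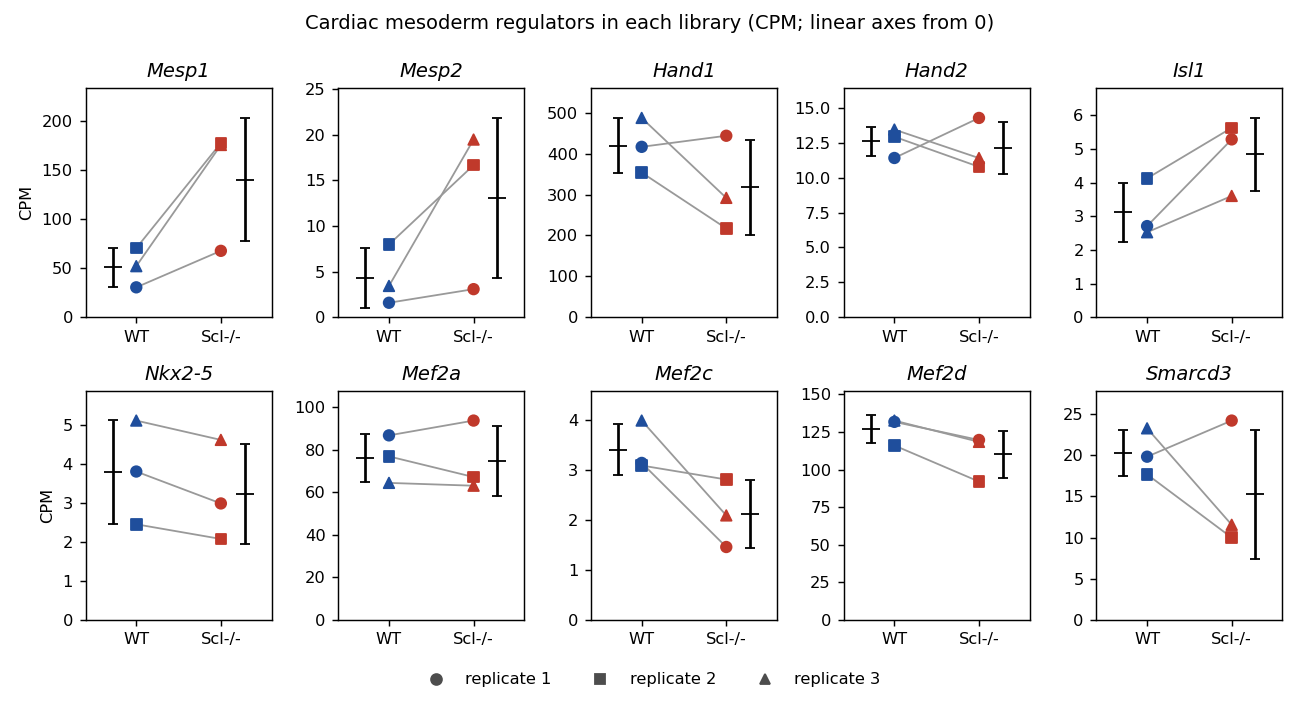
CPM of the 10 regulators in every library, 1 panel per gene with a linear axis from 0. Blue points are WT, red points Scl-/-, shapes mark the replicate number, lines join same-numbered libraries and the bars beside them give the mean ± SD (n = 3). Mesp1, Mesp2 and Isl1 rise along all 3 lines, whereas Nkx2-5, Mef2c and Mef2d fall along all 3.

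Mesp1 (ENSMUSG00000030544; minus strand of chromosome 7 of mm9, 86937127 to 86938674) encodes the bHLH factor that marks nascent cardiac mesoderm. In the order of their numbers, the WT libraries read 30.5, 70.5 and 52.1 CPM and the Scl-/- libraries 67.8, 177.9 and 175.9 CPM, and values of other genes are given in the same order. The groups overlapped only because WT replicate 2 lay just above Scl-/- replicate 1, while each Scl-/- library was well above the WT library of its own number. The mean was 51.0 ± 20.0 CPM in WT and 140.5 ± 63.0 CPM in Scl-/- cells (SD, n = 3 each), a log2 fold change of 1.40. Its SE was 0.43 with condition alone (adjusted p = 0.153, limma) and 0.11 with the replicate block (adjusted p = 0.000156). The 3 pairs gave log2 differences of 1.14, 1.33 and 1.75. The call with the block held without any one pair, with log2 fold changes from 1.23 to 1.54. With condition alone Mesp1 passed only when Scl-/- replicate 1 was left out (log2 fold change 1.86, adjusted p = 0.0458).

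Mesp2 (plus strand of chromosome 7, 86955613 to 86958317) encodes the sister factor, best known for setting somite boundaries, and lies 16938 bases away from the Mesp1 gene. Its WT libraries read 1.58, 7.97 and 3.42 CPM and its Scl-/- libraries 3.07, 16.7 and 19.5 CPM. Scl-/- replicate 1 lay inside the WT range and the other two above it. The log2 fold change was 1.38 with an SE of 0.74 (adjusted p = 0.401), or 0.27 with the block (adjusted p = 0.0095). Its pairs differed by 0.78, 1.02 and 2.35, so replicate 3 carried the largest difference, and without that pair the value was 0.90 (adjusted p = 0.0213 with the block). Mesp2 rested on 63 to 859 reads per library, against 1215 to 7756 for Mesp1.

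The 2 genes lie side by side, point away from each other and share a stretch of coding sequence, which decides how far their reads can be told apart. In the GENCODE transcripts of the same assembly, 205 aligned coding bases (224 to 428 of 732 in Mesp1 and 233 to 437 of 1113 in Mesp2) held 185 identical bases, or 90.2%. The stretch falls in the part that encodes the bHLH domain, and the 20 bases that differ are printed in capitals, 5′ to 3′ on the coding strand.
Mesp1: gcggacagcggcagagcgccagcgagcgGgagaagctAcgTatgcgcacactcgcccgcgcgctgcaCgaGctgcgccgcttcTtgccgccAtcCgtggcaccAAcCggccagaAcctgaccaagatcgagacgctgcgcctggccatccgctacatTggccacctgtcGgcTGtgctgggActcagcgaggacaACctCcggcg
Mesp2: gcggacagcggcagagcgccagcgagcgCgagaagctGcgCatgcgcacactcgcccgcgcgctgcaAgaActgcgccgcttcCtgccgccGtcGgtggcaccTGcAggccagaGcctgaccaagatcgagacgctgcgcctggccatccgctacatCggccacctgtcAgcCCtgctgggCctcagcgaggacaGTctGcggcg
The longest run without a difference was 42 bases, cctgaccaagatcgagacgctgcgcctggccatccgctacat, inside this stretch. Only 13 sequences of 30 bases occurred in both transcripts, which is 1.04% of those of Mesp1 and 0.662% of those of Mesp2. In CPM per kb of exonic length, Mesp1 was 13.4 to 29.3 times Mesp2 in the WT libraries and 13.7 to 33.5 times in the Scl-/- libraries. The ranges of this ratio overlapped between the genotypes. Reads from the shared stretch could be counted to either gene or dropped by the authors' mapping-quality filter, and their part in the Mesp2 values was not tested.

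Isl1 (minus strand of chromosome 13, 117088478 to 117099896), the LIM-homeodomain gene, was low in both genotypes. It read 2.71, 4.13 and 2.53 CPM in WT and 5.29, 5.63 and 3.61 CPM in Scl-/- cells. Scl-/- replicate 3 lay below WT replicate 2, and the other two Scl-/- libraries lay above every WT library. The mean rose from 3.12 ± 0.878 to 4.84 ± 1.08 CPM with the replicate block, a log2 fold change of 0.57 (SE 0.15, adjusted p = 0.0298), whereas condition alone gave an SE of 0.24 and an adjusted p of 0.285. The call with the block was lost without any one pair, with adjusted p of 0.104 without the first, 0.107 without the second and 0.0797 without the third. The level rested on 104 to 258 reads per library, so that counting alone gives an SD of 9.81% in the library with the fewest Isl1 reads. The study itself lists Mesp1, Mesp2 and Isl1 among genes higher in Scl-/- cells in these same libraries, so their direction here is no independent evidence.

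**Figure D2:**
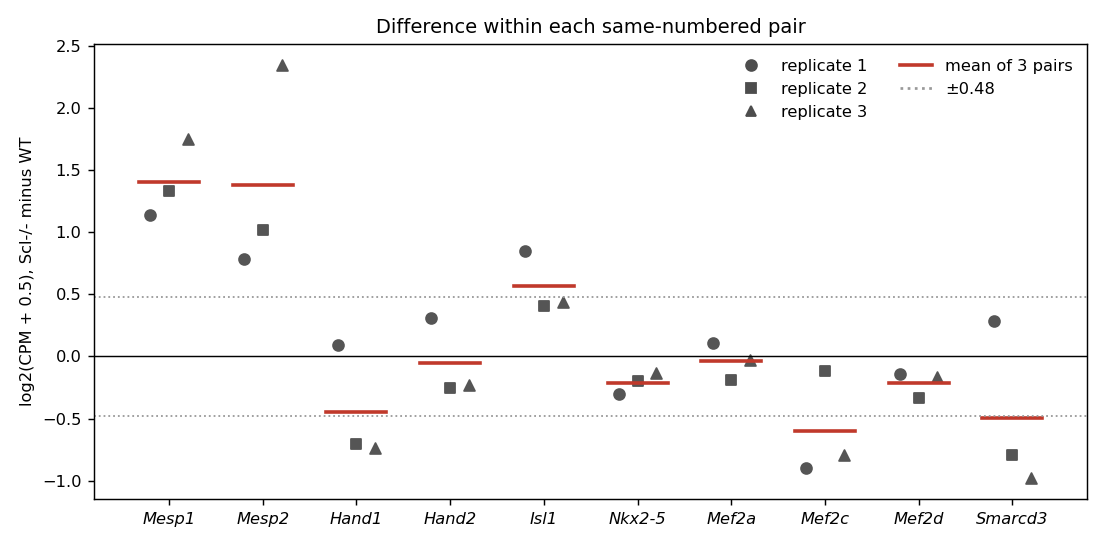
Difference in log2(CPM + 0.5), Scl-/- minus WT, within each same-numbered pair (grey points, shapes by replicate number) and the mean of the 3 pairs (red line) for each regulator, with dotted lines at ±0.48. All pairs of Mesp1 and Mesp2 lie above the upper dotted line, while the replicate 1 points of Hand1, Hand2, Mef2a and Smarcd3 lie on the other side of 0 from those of replicates 2 and 3.

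E-box letters (CANNTG, read on both strands) were looked up in the 250 bases before the RefSeq gene starts of the 3 genes called with the block, since bHLH factors bind them. The promoter table is of GRCm38.p6, and the windows were placed on mm9 by exact sequence match. Each window is 30 bases long, 5′ to 3′ on the strand of the gene, with the E-box in capitals.
Mesp1, chr7:86938639-86938668 (minus): gcatggttctttCAACTGgcagtcctggcc
Mesp1, chr7:86938585-86938614 (minus): ccaaatatggtcCAGGTGgagcagactgga
Mesp2, chr7:86955557-86955586 (plus): agcaactccatcCAGATGcgaattgtctct
Isl1, chr13:117099982-117100011 (minus): tgataatcagaaCAGCTGcgccgcgcgccc
Both Mesp1 windows lie inside the gene as GENCODE draws it, because its start is placed upstream of the RefSeq one. Among 32536 mouse promoters of the same length, 66.2% hold at least 1 such match, so most promoters of this length do. Of the other members with an entry, Hand2 held 2 matches, Nkx2-5 and Smarcd3 held 1 each, and Mef2a and Mef2d held 0, while the 3 listed starts of Mef2c held 2, 0 and 1. Hand1 had no entry. A match is a description of letters and not a bound site.

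Hand1 (minus strand of chromosome 11, 57642207 to 57646320), a bHLH gene of extraembryonic and lateral mesoderm and the early heart, had the highest mean of the 10 per length in both genotypes. It read 416.7, 353.8 and 487.4 CPM in WT and 443.8, 217.1 and 291.8 CPM in Scl-/- cells. Scl-/- replicates 2 and 3 lay below every WT library and Scl-/- replicate 1 lay inside the WT range. The log2 fold change was -0.45 with an SE of 0.25 (adjusted p = 0.428), or 0.15 with the block (adjusted p = 0.0606). Its pairs differed by 0.09, -0.70 and -0.74, and without the first pair the blocked fit called Hand1 lower (-0.72, adjusted p = 2.67e-05). The median over the 1211 genes tested on chromosome 11 was 0.31 and that of chromosome 1 was -0.29, whereas those of the other autosomes and X lay between -0.02 and 0.03. Relative to its own chromosome's median, the log2 fold change of Hand1 was -0.76, which was called lower with the block (adjusted p = 0.0298) but not without it (adjusted p = 0.301). Where this chromosome-wide shift comes from was not tested.

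Hand2 (plus strand of chromosome 8, 59799780 to 59803314), needed for second heart field and limb development, read 11.4, 12.9 and 13.5 CPM in WT and 14.3, 10.8 and 11.4 CPM in Scl-/- cells. The log2 fold change was -0.06 with an SE of 0.16 (adjusted p = 0.928), smaller than the spread within either group. In CPM per kb, Hand1 was 30.6 to 40.9 times Hand2 in WT and 22.5 to 34.8 times in Scl-/- libraries, and these ranges overlapped. Nkx2-5 (minus strand of chromosome 17, 26975609 to 26978510) read 3.81, 2.46 and 5.12 CPM in WT and 2.99, 2.08 and 4.63 CPM in Scl-/- cells. It was lower in each Scl-/- library than in the WT library of its number, by 0.30, 0.20 and 0.13 on the log2 scale, but the numbers differed from one another by more than the genotypes did. Its log2 fold change of -0.21 had an SE of 0.33 (adjusted p = 0.843), or 0.14 with the block (adjusted p = 0.315). Its 86 to 211 reads per library leave a counting SD of 10.8% in the library with the fewest Nkx2-5 reads.

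**Figure D3:**
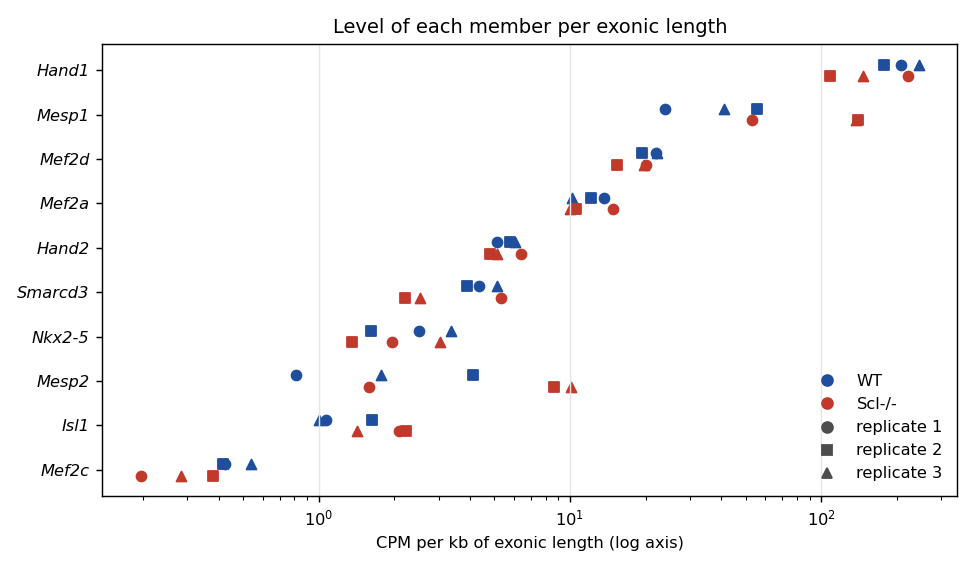
Level of each regulator in CPM per kb of exonic length on a log axis, 1 point per library (blue WT, red Scl-/-, shapes by replicate number), ordered by the WT mean. The genes span from below 1 CPM per kb for Mef2c to above 100 for Hand1, and the red Mesp1 points of replicates 2 and 3 come up to those of Hand1.

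Levels were compared between genes per kb of exonic length, so the order depends on the length used for each gene. For Smarcd3 that length was 4.545 kb, longer than its protein-coding transcripts, so its level per kb may be understated. The place of Smarcd3 in both orders, and the overlaps counted with it, are therefore uncertain. In WT cells the order of the means was Hand1 (210 CPM per kb), Mesp1 (40.0), Mef2d (21.2), Mef2a (10.2 to 13.7 over its libraries), Hand2 (5.64), Smarcd3 (4.46), Nkx2-5 (2.49), Mesp2 (2.23), Isl1 (1.24) and Mef2c (0.460). Among the 9 neighbouring pairs in that order the library ranges overlapped in 3, which were Hand2 with Smarcd3, Nkx2-5 with Mesp2, and Mesp2 with Isl1. In Scl-/- cells the order was Hand1 (159 CPM per kb), Mesp1 (110), Mef2d (18.4), Mef2a (11.8), Mesp2 (6.76), Hand2 (5.44), Smarcd3 (3.35), Nkx2-5 (2.12), Isl1 (1.92) and Mef2c (0.286). There 6 of the 9 neighbouring pairs overlapped, Hand1 with Mesp1 among them, and the 3 that stayed apart were Mesp1 above Mef2d, Mef2d above Mef2a and Isl1 above Mef2c. The ratio of Mesp1 to Hand1 per kb was 0.115, 0.312 and 0.167 in WT and 0.239, 1.28 and 0.944 in Scl-/- cells. Thus Mesp1 exceeded Hand1 in Scl-/- replicate 2 alone and came close to it in replicate 3.

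Of the MEF2 genes, Mef2c (plus strand of chromosome 13, 83643033 to 83806684) is the one on which the mouse heart depends most. Its WT libraries read 3.14, 3.08 and 3.98 CPM and its Scl-/- libraries 1.46, 2.80 and 2.09 CPM. Every Scl-/- library was below every WT library, although Scl-/- replicate 2 came close to the lowest of them. The log2 fold change was -0.60 with an SE of 0.24 (adjusted p = 0.243), or 0.19 with the block (adjusted p = 0.053), so neither fit called it. The pairs differed by -0.89, -0.12 and -0.79, and without the second pair the blocked value was -0.84 (adjusted p = 0.0518). Mef2c rested on 71 to 164 reads per library, for a counting SD of 11.9% in the library with the fewest Mef2c reads.

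Mef2a and Mef2d, the widely expressed MEF2 genes, were far more abundant. Mef2a (minus strand of chromosome 7, 74376049 to 74517744) read 86.7, 76.9 and 64.4 CPM in WT and 93.7, 67.2 and 63.1 CPM in Scl-/- cells, a log2 fold change of -0.04 (SE 0.18, adjusted p = 0.965). Mef2d (plus strand of chromosome 3, 87946294 to 87976008) read 131.7, 116.0 and 132.6 CPM in WT and 119.7, 92.0 and 118.4 CPM in Scl-/- cells. Each Scl-/- library of Mef2d was lower than its WT partner, by 0.14, 0.33 and 0.16 on the log2 scale, and Scl-/- replicates 1 and 3 lay above the lowest WT library. Its log2 fold change was -0.21 with an SE of 0.13 (adjusted p = 0.476), or 0.07 with the block (adjusted p = 0.0509), and lay inside the fold-change threshold in either fit. In 8.81% of its exonic bases Mef2d overlaps 1700113A16Rik, a noncoding gene on the opposite strand.

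Per kb, Mef2c made up 1.17%, 1.31% and 1.64% of the summed Mef2a, Mef2c and Mef2d level in WT and 0.562%, 1.44% and 0.939% in Scl-/- cells. Scl-/- replicate 2 lay inside the WT range. The difference of -0.392 percentage points gave a two-sided exact permutation p of 0.3, and 3 libraries against 3 cannot go below 0.1. Mef2d took 60.7 to 67.4% of the sum in WT and 57.1 to 65.9% in Scl-/- cells, and Mef2a the rest but for Mef2c. The 3 MEF2 transcripts shared no sequence of 30 bases, so their reads can largely be told apart.

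Smarcd3 (minus strand of chromosome 5, 24096636 to 24107830) encodes 1 of 3 alternative subunits of the BAF complex, the others being SMARCD1 and SMARCD2. It read 19.8, 17.7 and 23.3 CPM in WT and 24.2, 9.98 and 11.5 CPM in Scl-/- cells. Scl-/- replicate 1 was the highest of all 6 libraries and Scl-/- replicates 2 and 3 were the lowest. The log2 fold change was -0.50 with an SE of 0.31 (adjusted p = 0.493), or 0.22 with the block (adjusted p = 0.14). Its pairs differed by 0.28, -0.79 and -0.98, and without the first pair the blocked fit called Smarcd3 lower (-0.89, adjusted p = 0.000307). Of its exonic bases, 54.3% overlap Chpf2, a chondroitin-synthesis gene on the opposite strand, which read 30.6, 24.9 and 37.1 CPM in WT and 30.6, 17.4 and 23.2 CPM in Scl-/- cells. Both genes were lower in Scl-/- replicates 2 and 3 than in their WT partners. Whether counting used the strand is not given in the sources used here, so the reads of Smarcd3 and Chpf2 cannot be told apart over that overlap.

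The other SMARCD genes were read at higher levels. Smarcd1 read 157, 178 and 163 CPM in WT and 164, 196 and 178 CPM in Scl-/- cells (log2 fold change 0.11, SE 0.10, adjusted p = 0.68). Smarcd2, on chromosome 11, read 63.9, 67.2 and 72.4 CPM in WT and 74.4, 106.9 and 98.0 CPM in Scl-/- cells. Its log2 fold change of 0.44 fell to 0.13 relative to the median of its chromosome. Per kb, Smarcd3 was 6.07%, 4.91% and 6.66% of the summed SMARCD level in WT and 6.84%, 2.33% and 2.94% in Scl-/- cells. Scl-/- replicate 1 stood above all WT libraries and replicates 2 and 3 below them. The mean difference was -1.84 percentage points (two-sided exact permutation p = 0.4), beside an SD of 0.887 in WT and 2.44 in Scl-/- libraries. The exonic length used for Smarcd3 was 4.545 kb, but its protein-coding transcripts held only 1706 different sequences of 30 bases. Smarcd1 and Smarcd2 held 3124 and 3095, beside 3.153 and 3.589 kb, so the per-kb share of Smarcd3 may be understated. Without length the share was 8.24%, 6.72% and 9.01% in WT and 9.23%, 3.19% and 4.01% in Scl-/- cells.

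Genes known to act before, beside or below the MESP factors were read as a group of 19, of which 16 were tested. With condition alone 2 were called higher (Mixl1 and Etv2) and 0 lower, against 0.793% and 1.57% of all genes tested. With the replicate block 13 were called higher and 0 lower, against 6.04% and 6.6%. The list median was 0.95, beside 0.01 over all genes. Dll3, a Notch ligand gene of the presomitic mesoderm, read 6.40, 34.9 and 9.25 CPM in WT and 22.3, 99.7 and 56.5 CPM in Scl-/- cells, a log2 fold change of 1.92. Each Scl-/- library was above the WT library of its number, but WT replicate 2 stood above Scl-/- replicate 1. Lfng (1.40) and Snai1 (1.28), a Notch modifier gene and a repressor gene of epithelial-to-mesenchymal transition, rose with the block. Tbx6, a T-box gene of paraxial mesoderm, rose by 0.90 and Pdgfra, which marks cardiac and paraxial mesoderm, by 0.88, both with the block only. Mixl1, a primitive streak homeobox gene, rose by 1.04 and Etv2, a haemato-endothelial ETS gene, by 0.78 in both fits, and these 2 were picked out after their values had been seen. The study drew several genes of this list from the same libraries, so the count is no independent evidence of direction.

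Among 27 other cardiac regulators, 20 were tested, with 0 called by condition alone and a list median of -0.05. With the block 6 were called higher and 2 lower, against 6.04% and 6.6% of all genes tested. Gata4, a zinc-finger gene of heart and endoderm, read 187, 272 and 177 CPM in WT and 271, 350 and 296 CPM in Scl-/- cells, a log2 fold change of 0.55 called with the block only (adjusted p = 0.00239). Only Scl-/- replicate 1, at the level of WT replicate 2, kept the groups from standing apart. Gata6, its relative, rose by 0.59 with the block (adjusted p = 0.00544), and so did Irx5 by 1.07 and Myocd, the SRF coactivator gene on chromosome 11, by 0.77. Relative to the median of its chromosome, Myocd was at 0.47 and no longer called (adjusted p = 0.151 with the block). Hey2, a Notch target gene of heart and vessels, fell by 1.65 on the log2 scale with the block, from 15.8, 6.87 and 17.1 CPM in WT to 6.23, 1.81 and 3.83 CPM in Scl-/- cells. Gata5, Tbx1, Tbx5, Tbx18, Irx4, Nkx2-6 and Prdm16 were not among the listed genes and so were not analysed here.

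Partners and neighbours of NKX2-5 and ISL1 moved in both directions. Of 10 tested, 0 were called higher and 1 lower with condition alone, against 0.793% and 1.57% of all genes tested. With the block 3 were higher and 1 lower, against 6.04% and 6.6%, at a list median of -0.05. Hcn4, a pacemaker channel gene of the first heart field, read 5.34, 5.20 and 4.27 CPM in WT and 1.52, 1.06 and 1.04 CPM in Scl-/- cells and was called in both fits (log2 fold change -1.68, adjusted p = 0.00899 and, with the block, 0.000333). Its groups stood well apart. Lhx1, a LIM-homeodomain gene of early mesoderm on chromosome 11, rose by 2.15 with the block, from 28.7, 216 and 36.5 CPM in WT to 83.4, 721 and 340 CPM in Scl-/- cells. Fgf8, a secreted factor gene of the streak and second heart field, rose by 0.71 with the block.

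The calls among bHLH partners and antagonists, MEF2 cofactors and BAF subunits stand beside those over all genes. With the block 6.04% of all genes tested were called higher and 6.6% lower. With condition alone 0 genes of these lists were called. With the block, 0 of the 9 bHLH partners and antagonists were higher and 1 was lower (Id4, an inhibitor of bHLH dimers, log2 fold change -0.55), and the E protein gene Tcf3 read 0.07 below WT on the log2 scale (adjusted p = 0.479). Of the 11 table entries for 10 MEF2 cofactor and antagonist symbols, 1 was higher (Hdac5, on chromosome 11, 0.48) and 1 lower (Camk2d, -0.49). Of 23 BAF subunit genes, 0 were higher and 1 lower with the block, Smarca2, which encodes one of the alternative ATPases, at -0.86. Relative to the median of its chromosome, Hdac5 was at 0.18 and no longer called (adjusted p = 0.145 with the block). The list medians were -0.07, -0.09 and -0.04.

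**Figure D4:**
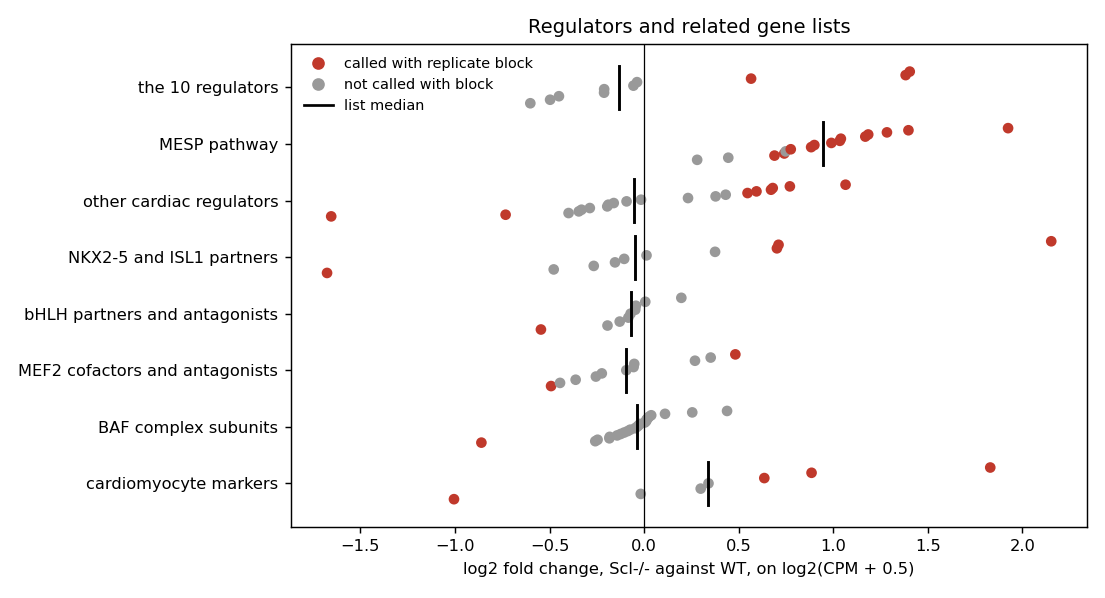
Log2 fold change of every tested gene, 1 point per gene, in the 10 regulators and 7 related lists, with points called in the fit with the replicate block in red, other points in grey and the list median as a black bar. The MESP pathway list lies to the right of 0 throughout, while the bHLH, MEF2 and BAF lists cluster near 0.

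Marker genes of other cells that the FLK1 gate could hold moved beside these results. Of 16 cardiomyocyte markers, 7 were tested, and their summed level was 28.1 to 37.0 CPM in WT and 42.8 to 59.1 CPM in Scl-/- libraries. With the block 3 were higher and 1 lower, against 6.04% and 6.6% of all genes tested, and 0 were called without it. Myl7, an atrial myosin light chain gene on chromosome 11, read 3.36, 8.10 and 4.44 CPM in WT and 11.9, 26.0 and 22.0 CPM in Scl-/- cells (log2 fold change 1.83, adjusted p = 0.0546 with condition alone). Actc1, cardiac actin, rose by 0.89 and Tnni1, slow skeletal troponin I on chromosome 1, fell by 1.01 on the log2 scale, both with the block, but relative to the median of its chromosome Tnni1 was at -0.72 and no longer called (adjusted p = 0.088 with the block). Tnni3, cardiac troponin I, read 2.11, 2.06 and 2.04 CPM in WT and 3.83, 2.76 and 4.01 CPM in Scl-/- cells, groups that did not overlap (log2 fold change 0.64, adjusted p = 0.025 with the block). Actn2 averaged 9.75 CPM in WT and 12.1 CPM in Scl-/- cells and Ryr2 2.57 and 2.44 CPM, and neither was called. These 3 were named after their values had been seen. The sarcomere genes Myh6, Myh7 and Tnnt2 were not among the listed genes and so were not analysed here. The 14 blood and endothelial markers tested summed to 347 to 711 CPM in WT and 45.2 to 118 CPM in Scl-/- libraries, with a median of -2.76. Of these, 10 were called lower by condition alone and 14 with the block, against 1.57% and 6.6% of all genes tested. On the log2(CPM + 0.5) scale Tie1 fell by 3.64, Gfi1b by 3.52 and Gata1 by 3.28, and the pseudocount limits such values for genes that are near or below 3 reads in Scl-/- libraries, as Gfi1b is.

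Of the paraxial mesoderm markers 5 were tested, and with the block 2 were higher (Tbx6 and Msgn1) and 0 lower. Among the others, Tcf15 (-0.70) and Foxc2 (-0.23) were lower in all 3 pairs and Foxc1 (0.72) was higher in all 3. The list summed to 14.95 to 30.1 CPM in WT and 17.9 to 42.3 CPM in Scl-/- libraries. Of 8 pluripotent and epiblast markers, 4 were higher and 1 lower with the block, led by Fgf5 (1.21), Esrrb (-0.91) and Nanog (0.82), and the sum was 134 to 216 CPM in WT and 129 to 299 CPM in Scl-/- libraries. Endoderm markers (4 tested, 2 higher and 1 lower with the block) summed to 140 to 202 CPM in WT and 180 to 303 CPM in Scl-/- libraries. Most of that sum was Gata6, also listed as a cardiac regulator, at 97.0 to 156 CPM in WT and 126 to 218 CPM in Scl-/- libraries. The lower gene was Sox17, which is also in the blood and endothelial list. Neural and ectoderm markers (5 tested, 2 higher and 1 lower with the block) summed to 421 to 505 CPM in WT and 403 to 571 CPM in Scl-/- libraries. Most of that sum was Krt8, at 336 to 424 CPM in WT and 228 to 437 CPM in Scl-/- libraries, which was not called. The higher genes were Otx2 (1.23) and Nes (0.76) and the lower one Tubb3 (-0.91). With condition alone 0 genes of these 4 lists were called. The counts with the block stand beside 6.04% called higher and 6.6% called lower over all genes tested. The part of cell composition in the differences of the 10 regulators was not tested.

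The profiles most like those of Mesp1, Hand1 and Mef2c were sought over the 6 libraries among 13953 genes, by the root mean square difference of log2(CPM + 0.5) values after centring each gene on its mean. Snai1 came nearest to Mesp1 (0.117, against a spread of 0.909 of Mesp1 about its own mean), with 43.9, 102 and 67.5 CPM in WT and 96.7, 225 and 205 CPM in Scl-/- cells. Lfng (0.128) and Gm16034 (0.184) followed, and Mesp2 stood at rank 133 of the 13953. Per kb, Mesp1 was 0.876 to 0.982 times Snai1 in WT and 0.891 to 1.09 times in Scl-/- libraries. Snai1 was picked for its likeness over these same libraries, so the steadiness of this ratio follows from that choice. Hand1 was most like Chpf2 (0.0859), Fads3 (0.0897) and Rab3il1 (0.0921), against its own spread of 0.397, and Smarcd3 stood at rank 25. Chpf2 and Smarcd3 overlap on opposite strands, so their places may rest in part on the same reads. Mef2c was most like Gsta4 (0.111), Abat (0.141) and Aldh1a2 (0.143), against its own spread of 0.386. The points share their 6 libraries, and likeness over so few describes these libraries only.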

How the data were processed

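The authors aligned reads to mm9 with TopHat2 2.0.8b, filtered them with SAMtools 0.1.19 (mapping quality above 15), removed duplicate read pairs and scaled the libraries by TMM in edgeR. The deposited CPM values cover 14005 genes in 3 WT and 3 Scl-/- libraries. The counting tool, annotation and strand setting are not given in the sources used here. Removing duplicates can cap the values of short, highly expressed genes.

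The 13991 genes that reached 0.5 CPM in 3 or more libraries were tested on log2(CPM + 0.5) with limma 3.58.1 in R 4.3.3 (intensity trend, condition only, Benjamini-Hochberg adjustment). Every value was within 0.1 of a whole multiple of 1 read's worth per library, which gave the reads. Too few low values were listed to take the table as counts, so no count model was run. Deviations from the group means correlated at 0.587, 0.756 and 0.748 for replicates 1 to 3 with their own number, so the replicate number was also fitted as a block. Correlations with other numbers were -0.621 to -0.0996. Deviations cancel within each group, so given the positive values these had to be negative on average and are no separate support. Alternatives were other pseudocounts, filters and scalings, no trend, chromosome medians removed, each library left out and, added after seeing the data, each pair left out of the blocked fit. The fit was tested on simulated data.

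The members and lists were chosen with earlier results of these data known. Named genes are the 10 members, Tal1 and Kdr, at most 3 called genes of each list by absolute log2 fold change, Gata4, Gata6, Smarcd1, Smarcd2, Tbx6 and Pdgfra, and the 3 most similar profiles (mean of at least 1 CPM) to Mesp1, Hand1 and Mef2c. Tnni3, Actn2, Ryr2, Msgn1, Tcf15, Foxc1, Foxc2, Krt8, Mixl1, Etv2, Chpf2, Tcf3 and 1700113A16Rik were named in addition after values or overlaps were seen. Exonic lengths and overlaps are from GENCODE vM1 on NCBIM37 (mm9), and promoters from RefSeq on GRCm38.p6, with 9 of 10 members matched. Other steps used Python 3.11.15, NumPy 2.4.6, SciPy 1.17.1, pandas 2.3.3 and Matplotlib 3.10.9.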

Additional observations from a re-analysis of the deposited data

How the results depend on the processing

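Without the replicate block, 0 of the 10 regulators were called lower under any alternative, and 0 to 1 were called higher when single libraries were left out (1, Mesp1, without Scl-/- replicate 1). With the block, 3 were called higher, also with chromosome medians removed (3) or with no fold-change threshold (3), and 2 without pair 1, 2 without pair 2 and 2 without pair 3, since Isl1 then missed the threshold. Lower calls with the block were 1 with chromosome medians removed (Hand1) and 2 without pair 1 (Hand1 and Smarcd3). Over all genes, the block raised the calls from 111 to 845 higher and from 219 to 923 lower. It gave 666 and 826 with chromosome medians removed, 1053 and 1009 without pair 1, 516 and 606 without pair 2, 474 and 736 without pair 3, and 1685 and 1700 with no fold-change threshold. Removing chromosome medians without the block left 74 higher calls. Leaving out single libraries without the block gave 11 to 172 higher and 33 to 240 lower calls, both lowest without WT replicate 1, and the cause was not tested. Small log2 fold changes of 3 genes changed sign. Hand2 read 0.0414 without pair 2 and 0.0296 without pair 3 under the block and ranged from -0.17 to 0.0216 over single libraries left out. Nkx2-5 ranged from -0.47 to 0.0264 over single libraries left out. Mef2a read 0.0405 without pair 2 under the block and ranged from -0.21 to 0.0721 over single libraries left out. The block changed no other call among the 10. Depth limits Mef2c, Isl1, Nkx2-5 and Mesp2 most.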
